A study of Mus musculus with 6 samples.

Results

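The genes of the transforming growth factor-β (TGFβ) ligands, of the proteins that hold them latent and of their receptors were compared between hearts of *Col1a2-/-* and *Col1a2+/-* mice. The set was chosen by gene symbol and holds 10 genes, *Tgfb1*, *Tgfb2*, *Tgfb3*, *Ltbp1*, *Ltbp2*, *Ltbp3*, *Ltbp4*, *Tgfbr1*, *Tgfbr2* and *Tgfbr3*, out of 19505 genes with a symbol on the array. Each of the 10 was read by 1 of 22206 probe sets tested. Hearts of 3 *Col1a2-/-* and 3 *Col1a2+/-* mice on a C57/BL6 background were taken at 2 months of age, and total RNA was hybridized to Affymetrix Clariom S Mouse arrays, 1 array per heart. All values are log2 signals as normalized by the authors' software. The *Col1a2-/-* mice carried 2 copies of a germline knockout-first allele, in which an inserted cassette disrupts the gene in every cell of the body, and the *Col1a2+/-* controls carried 1 copy, so that no wild-type heart was compared. The tissue is whole heart by the labels and ventricles by the methods, and the labels name neither sex nor litter. Animal numbers begin with 27 for *Col1a2+/-* heart 2769 and *Col1a2-/-* hearts 2767 and 2770, and with 32 for *Col1a2+/-* hearts 3201 and 3294 and *Col1a2-/-* heart 3200, here called series 27 and series 32. The p-values describe the spread between 6 animals.

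TGFβ is made as a precursor whose cleaved propeptide stays wrapped around the growth factor and keeps it inactive. This latent pair is joined to a latent TGFβ binding protein (LTBP), which anchors it in the extracellular matrix on fibrillin and fibronectin, until integrins, proteases or thrombospondin-1 release it. Free TGFβ binds the type II receptor, often helped by the co-receptor betaglycan, and the type II receptor then activates the type I receptor, which phosphorylates Smad2 and Smad3. In the heart this pathway is best known for turning resting fibroblasts into matrix-producing myofibroblasts. The question here was whether RNA levels of the pathway's own components differed in hearts that lack the α2 chain of type I collagen.

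*Col1a2* itself checked the labels. Its log2 signal was 6.86, 6.84 and 6.48 in *Col1a2-/-* hearts 2767, 2770 and 3200 and 9.47, 9.06 and 9.18 in *Col1a2+/-* hearts 2769, 3201 and 3294. It fell by 2.51 on the log2 scale (adjusted p = 0.00626 from limma), and it was the 1 probe set of the 22206 that passed an adjusted p under 0.05 (0.0045%). At an unadjusted p under 0.05 stood 5.45% of all probe sets, with 2.79% lower and 2.67% higher in *Col1a2-/-* hearts. Separation of all 3 *Col1a2-/-* from all 3 *Col1a2+/-* values was seen in 10.6% of probe sets, with *Col1a2-/-* lower in 5.47% and higher in 5.13%. Array medians lay between 6.64 and 6.67. The ventricular myocyte markers, 8 of 8 above the dim limit defined below, had mean log2 signals of 18.16 to 18.25 in every heart. *Col1a2+/-* heart 3294 stood apart from the others. Its 8 atrial myocyte markers averaged 12.95 on the log2 scale, and those of the remaining 5 hearts 8.52 to 10.45. Its 6 brown fat markers averaged 8.41, where other hearts had 6.97 to 7.28, and its 3 measured Y-linked genes averaged 3.81, where other hearts had 10.56 to 10.93. Differences of the 10 genes are therefore also given without it.

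None of the 10 genes passed an adjusted p under 0.05 from limma (the lowest adjusted p was 0.906). At an unadjusted p under 0.05, 2 of the 10 were lower in *Col1a2-/-* hearts, *Ltbp1* and *Tgfbr3*, and 0 were higher, beside 2.79% and 2.67% of all probe sets. These were also the 2 genes whose values were separate between genotypes, beside 5.47% of all probe sets that were separate in this direction. The mean was lower in *Col1a2-/-* hearts for 6 genes and higher for 4, and the median log2 difference was −0.037 over the 10 genes and −0.00062 over all probe sets tested. In bulk RNA of a heart, fewer cells of a type and less RNA per cell cannot be told apart.

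**Figure D1:**
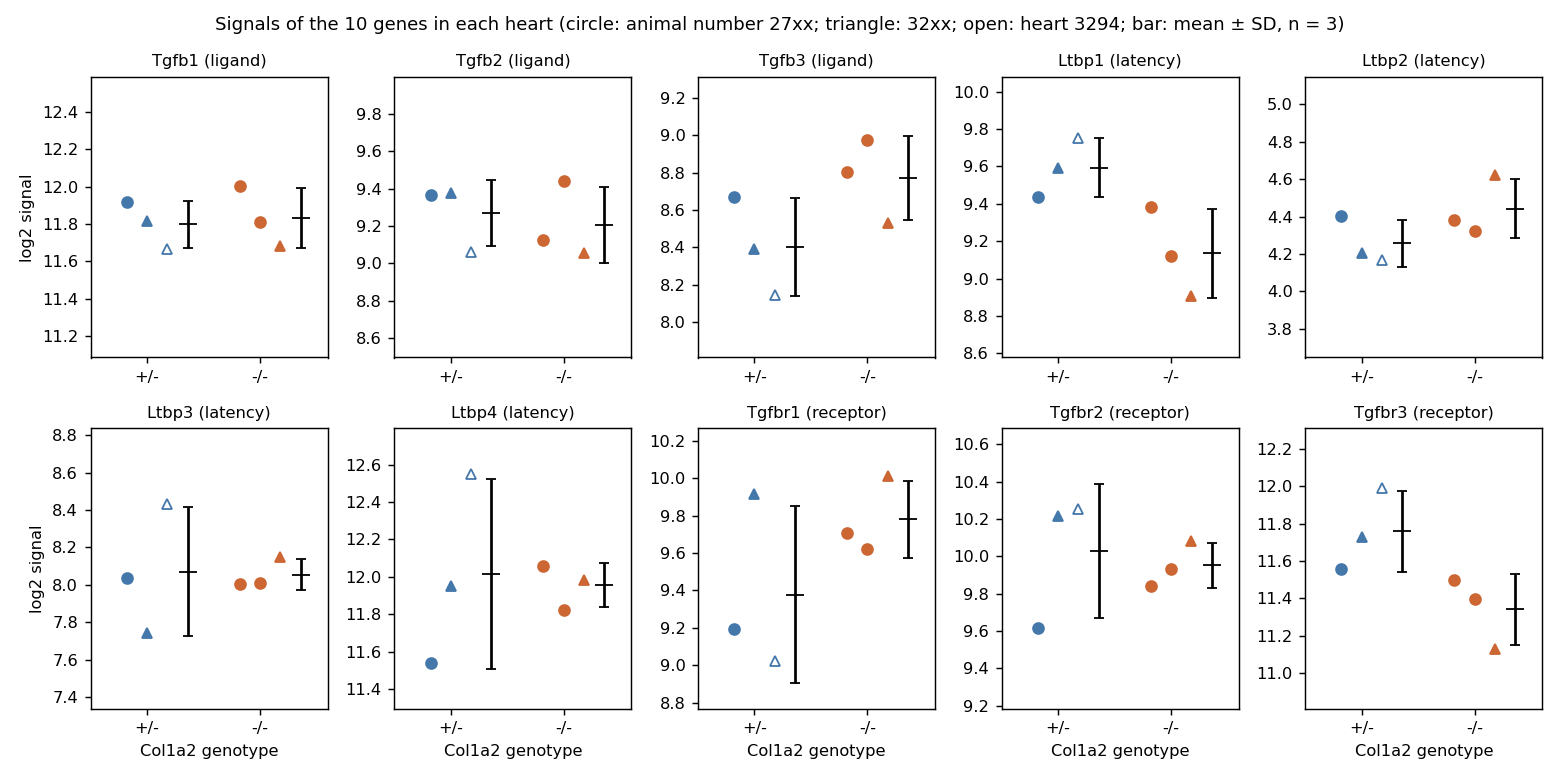
Log2 signal of each of the 10 genes (vertical axis, a span of the same size in every panel) in 3 Col1a2+/- and 3 Col1a2-/- hearts, shown as points, with circles for series 27, triangles for series 32 and an open symbol for heart 3294, and bars give the mean ± SD. The hearts of the 2 genotypes are separate in Ltbp1 and Tgfbr3 and overlap in the other 8 panels.

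Among the ligands, *Tgfb1* and *Tgfb2* differed little between the genotypes and *Tgfb3* had the higher mean in *Col1a2-/-* hearts, but none passed the test. *Tgfb1*, the isoform studied most in fibrosis, measured 12.005, 11.81 and 11.68 (log2 signal) in *Col1a2-/-* hearts 2767, 2770 and 3200, while *Col1a2+/-* hearts 2769, 3201 and 3294 gave 11.92, 11.82 and 11.67. The 3 values of one genotype thus lay nearly on those of the other. The log2 difference was 0.032 (95% confidence interval −0.34 to 0.41, adjusted p = 0.986 from limma), which corresponds to a fold change of 1.02 with an interval from 0.788 to 1.33. It was −0.0096 in series 27 and −0.059 in series 32.

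*Tgfb2*, the isoform needed for cushion and septum formation in the embryonic mouse heart, had 9.13, 9.44 and 9.05 in *Col1a2-/-* hearts 2767, 2770 and 3200, and 9.37, 9.38 and 9.06 in *Col1a2+/-* hearts 2769, 3201 and 3294. The highest and the lowest of the 6 values were both *Col1a2-/-* hearts. The log2 difference was −0.062 (95% confidence interval −0.47 to 0.34, adjusted p = 0.976 from limma), with −0.083 in series 27 and −0.17 in series 32.

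*Tgfb3*, which in the mouse is required for fusion of the palate, had 8.80, 8.97 and 8.53 in *Col1a2-/-* hearts 2767, 2770 and 3200, and 8.67, 8.39 and 8.15 in *Col1a2+/-* hearts 2769, 3201 and 3294. Heart 2769 lay above *Col1a2-/-* heart 3200, so that the genotypes overlapped, and heart 3294 was the lowest of the 6. The mean was 8.77 ± 0.22 against 8.40 ± 0.26 (SD, n = 3 each), a log2 difference of 0.37 (95% confidence interval −0.080 to 0.81, adjusted p = 0.920 from limma). Its size was larger than that of 87.0% of all probe sets. It was 0.22 in series 27, 0.26 in series 32, 0.24 without heart 3294 and 0.50 without heart 2769 (unadjusted p = 0.0433, adjusted p = 0.759 from limma).

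Of the 4 genes of binding proteins, *Ltbp1* was lower in all *Col1a2-/-* hearts and the values of the other 3 overlapped. *Ltbp1* encodes a binding protein that covalently joins the latent form of TGFβ, and it had the smallest unadjusted p of the 10 genes. Its log2 signal was 9.38, 9.12 and 8.91 in *Col1a2-/-* hearts 2767, 2770 and 3200, and 9.44, 9.59 and 9.75 in *Col1a2+/-* hearts 2769, 3201 and 3294. All 3 *Col1a2-/-* hearts lay below all 3 *Col1a2+/-* hearts, but the highest of the former, 2767, was close to the lowest of the latter, 2769. Both of these hearts are of series 27. The mean was 9.14 ± 0.24 against 9.59 ± 0.16 (SD, n = 3 each), a log2 difference of −0.46 (95% confidence interval −0.87 to −0.044, unadjusted p = 0.0336 and adjusted p = 0.906 from limma). This corresponds to a fold change of 0.728. The exact two-sided permutation p was 0.1, the smallest that 3 against 3 allow. It was −0.19 in series 27 and −0.77 in series 32. The test of interaction between genotype and series did not pass (unadjusted p = 0.179 from limma), nor did it for any of the other 9 genes, beside 3.76% of all probe sets at an unadjusted p under 0.05. Without heart 3294 the difference was −0.38 (unadjusted p = 0.0956 from limma).

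The gene has 2 transcription starts in RefSeq, which lie far apart on chromosome 17, and the array reads it with 1 probe set, so that transcripts from the 2 starts were not measured separately. The 250 bases before each start are shown because they are the candidate promoters of the gene with the smallest p, from RefSeq on GRCm38.p6, plus strand, with capitals for the core of the Smad-binding CAGA box, CAGAC or its reverse complement GTCTG. The first lies at chr17:75005279-75005528 and the second at chr17:75178531-75178780.
Ltbp1 start 1: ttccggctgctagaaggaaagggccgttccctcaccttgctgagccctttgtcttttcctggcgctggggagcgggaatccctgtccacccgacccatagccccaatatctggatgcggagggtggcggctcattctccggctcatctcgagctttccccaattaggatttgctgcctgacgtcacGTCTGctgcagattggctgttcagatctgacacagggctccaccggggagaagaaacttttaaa
Ltbp1 start 2: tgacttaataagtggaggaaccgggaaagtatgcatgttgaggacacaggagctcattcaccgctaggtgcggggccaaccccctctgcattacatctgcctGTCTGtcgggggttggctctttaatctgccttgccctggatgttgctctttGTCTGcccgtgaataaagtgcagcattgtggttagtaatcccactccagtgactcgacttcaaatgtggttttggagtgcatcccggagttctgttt

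The core is present 1 time before start 1 and 2 times before start 2. RefSeq windows were found for 8 of the 10 genes, 12 windows in all, and 7 of the 12 hold the core on either strand, beside 42.2% of 32851 windows of the same length over all genes. The *Ltbp4* windows at chr7:27333649-27333898 and chr7:27333664-27333913 overlap in most of their bases, and neither holds the core. The palindrome GTCTAGAC, another Smad-binding sequence, was in 0 of the 12 and in 0.167% of all windows. These matches describe letters in the windows and not binding.

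*Ltbp2*, whose product binds fibrillin but not TGFβ, was dim. *Col1a2-/-* hearts 2767, 2770 and 3200 measured 4.38, 4.32 and 4.62 and *Col1a2+/-* hearts 2769, 3201 and 3294 measured 4.40, 4.20 and 4.17 (log2 signal), all under the dim limit of 5.97, which is the 95th percentile of the mean signals of 1452 smell, pheromone and taste receptor probe sets. It was the 1 gene of the 10 with a mean under this limit. Its log2 difference was 0.18 (95% confidence interval −0.19 to 0.56, adjusted p = 0.946 from limma), with −0.049 in series 27 and 0.44 in series 32.

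*Ltbp3*, which aids secretion of latent TGFβ, had 8.003, 8.01 and 8.15 in *Col1a2-/-* hearts 2767, 2770 and 3200, and 8.04, 7.74 and 8.43 in *Col1a2+/-* hearts 2769, 3201 and 3294. The *Col1a2-/-* hearts lay between the *Col1a2+/-* extremes. The log2 difference was −0.016 (95% confidence interval −0.47 to 0.44, adjusted p = 0.995 from limma), and 0.16 without heart 3294.

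*Ltbp4*, whose product also guides elastic fibre assembly, showed the same arrangement with a wider spread. It had 12.06, 11.82 and 11.98 in *Col1a2-/-* hearts 2767, 2770 and 3200, and 11.54, 11.95 and 12.55 in *Col1a2+/-* hearts 2769, 3201 and 3294, so that both the lowest and the highest were *Col1a2+/-* hearts. The SD was 0.51 among *Col1a2+/-* and 0.12 among *Col1a2-/-* hearts. The log2 difference was −0.058 (95% confidence interval −0.62 to 0.50, adjusted p = 0.983 from limma), and it was 0.21 without heart 3294. It was 0.40 in series 27 and −0.27 in series 32, on opposite sides of 0, and the interaction did not pass (unadjusted p = 0.191 from limma).

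**Figure D2:**
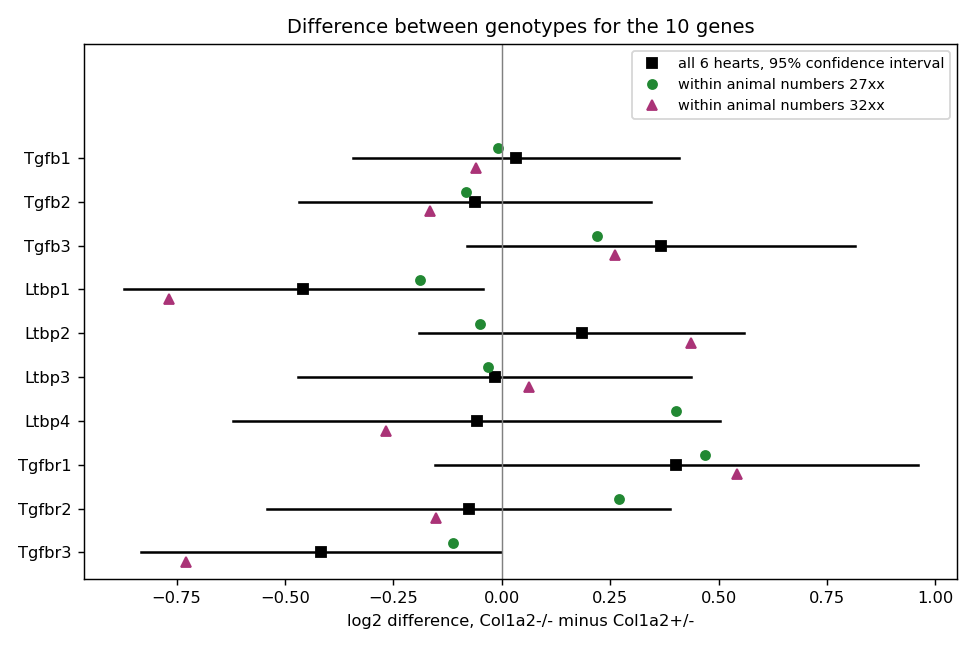
Log2 difference, Col1a2-/- minus Col1a2+/- (horizontal axis), of the 10 genes, where squares and lines give the difference over all 6 hearts with its 95% confidence interval from limma, circles the difference within series 27 and triangles within series 32. The intervals of Ltbp1 and Tgfbr3 end below 0 and the other 8 include 0.

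Of the receptors, the co-receptor gene *Tgfbr3* had the lower and the type I receptor gene *Tgfbr1* the higher mean in *Col1a2-/-* hearts, and the type II receptor gene *Tgfbr2* lay close to 0. *Tgfbr3* encodes betaglycan, which presents TGFβ, above all TGFβ2, to the type II receptor. It had 11.50, 11.40 and 11.13 in *Col1a2-/-* hearts 2767, 2770 and 3200, and 11.56, 11.73 and 11.99 in *Col1a2+/-* hearts 2769, 3201 and 3294. As with *Ltbp1*, all *Col1a2-/-* hearts lay below all *Col1a2+/-* hearts, and hearts 2767 and 2769 were nearest each other. The mean was 11.34 ± 0.19 against 11.76 ± 0.22 (SD, n = 3 each), a log2 difference of −0.42 (95% confidence interval −0.83 to −0.0018, unadjusted p = 0.0492 and adjusted p = 0.906 from limma), or a fold change of 0.749. The unadjusted p was 0.0741 with the series as a block in limma, 0.0532 with array weights and 0.0664 with the methods' t-test, so that *Tgfbr3* missed the threshold under these 3 alternatives. The exact two-sided permutation p was 0.1, the smallest possible. It was −0.11 in series 27 and −0.73 in series 32 (interaction, unadjusted p = 0.152 from limma) and −0.30 without heart 3294 (unadjusted p = 0.149 from limma).

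*Tgfbr1*, which encodes the kinase that phosphorylates Smad2 and Smad3, had 9.71, 9.62 and 10.01 in *Col1a2-/-* hearts 2767, 2770 and 3200. The values of *Col1a2+/-* hearts 2769, 3201 and 3294 were 9.20, 9.91 and 9.02. Hearts 2769 and 3294 were low, while heart 3201 lay among the *Col1a2-/-* hearts. The log2 difference was 0.40 (95% confidence interval −0.16 to 0.96, adjusted p = 0.930 from limma). It was 0.47 in series 27, 0.54 in series 32, 0.67 without heart 3201 (unadjusted p = 0.0104, adjusted p = 0.906 from limma) and 0.22 without heart 3294.

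*Tgfbr2*, the receptor that binds the ligand first, had 9.84, 9.93 and 10.08 in *Col1a2-/-* hearts 2767, 2770 and 3200, and 9.62, 10.22 and 10.25 in *Col1a2+/-* hearts 2769, 3201 and 3294. The 3 *Col1a2-/-* hearts lay inside the range of the *Col1a2+/-* hearts. The log2 difference was −0.077 (95% confidence interval −0.54 to 0.39, adjusted p = 0.975 from limma), with 0.27 in series 27 and −0.15 in series 32.

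*Ltbp1* and *Tgfbr3* put the 6 hearts in the same order, from 3294 as the highest through 3201, 2769, 2767 and 2770 to 3200 as the lowest. Pearson's r between them over the 6 hearts was 0.97, as a description. Both genes had values that were separate between the genotypes, and neither passed an adjusted p under 0.05. *Tgfbr3* was 1 of 100 genes, out of 11485 compared, whose r with *Ltbp1* exceeded 0.9. Among 11485 genes above the dim limit, those most like *Tgfb1* over the 6 hearts were *Azin1* and *Cr1l* (Pearson's r of 0.98 each). For *Tgfb2* they were *Arhgef5* and *4930431F12Rik* (r of 0.99 each), and for *Tgfb3* they were *Klhdc2* and *Snrpd1* (r of 0.99 each). With 6 hearts and this many genes such values are reached often, and between 53 and 161 genes had an r above 0.9 with each ligand.

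Heart 3294 was the highest or the lowest of the 6 hearts in 9 of the 10 genes, the exception being *Tgfb2*. Over all probe sets, heart 3294 was at an extreme in 40.3%, and in 45.5% of those above the dim limit, while each of the other hearts was at an extreme in 30.8% to 34.2%. It was the highest for *Ltbp1*, *Ltbp3*, *Ltbp4*, *Tgfbr2* and *Tgfbr3*, and the lowest for *Tgfb1*, *Tgfb3*, *Ltbp2* and *Tgfbr1*. The deviation of *Ltbp4* in heart 3294 from the mean over 6 hearts was 0.57, and that of *Tgfbr1* was −0.56. The atrial, brown fat and Y-linked values given above are of this same heart, and their part in these values was not tested. The resting fibroblast markers (13 of 14 measured, all above the dim limit) averaged 10.45 to 10.52 on the log2 scale for *Col1a2+/-* and 10.37 to 10.52 for *Col1a2-/-*, and the 11 endothelial markers measured had 11.74 to 11.83 and 11.76 to 11.93. The fibroblast marker not measured was *Pdgfra*, whose protein the paper stained to mark cardiac fibroblasts.

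**Figure D3:**
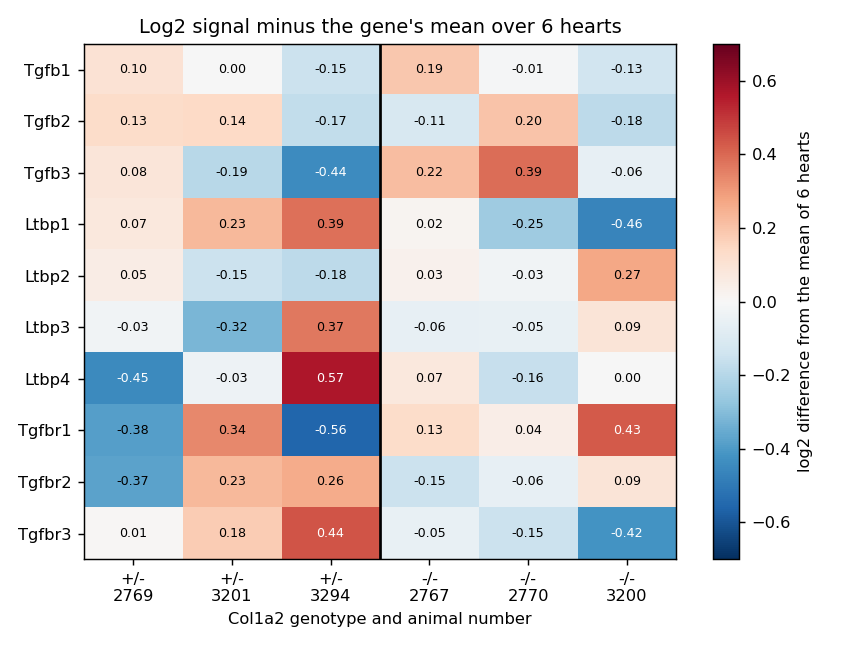
Log2 signal minus the gene's mean over the 6 hearts (colour and printed value) for the 10 genes in rows and the 6 hearts in columns, with the genotypes parted by a line. The column of heart 3294 runs from −0.56 for Tgfbr1 to 0.57 for Ltbp4.

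With 1 heart removed at a time, none of the 10 genes came past an adjusted p under 0.05. The log2 difference of *Ltbp1* stayed between −0.58 and −0.34 and that of *Tgfbr3* between −0.52 and −0.30. Both kept an unadjusted p under 0.05 without heart 2767 or 2769, and neither did without heart 2770, 3200, 3201 or 3294. *Tgfb3* stayed between 0.24 and 0.50 and *Tgfbr1* between 0.22 and 0.67. The sign depended on the heart left out for *Tgfb1*, *Tgfb2*, *Ltbp3*, *Ltbp4* and *Tgfbr2*, whose differences over all hearts were the 5 nearest to 0. Without heart 3294 the log2 difference was −0.034 for *Tgfb1*, −0.16 for *Tgfb2*, 0.14 for *Ltbp2* and 0.035 for *Tgfbr2*.

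**Figure D4:**
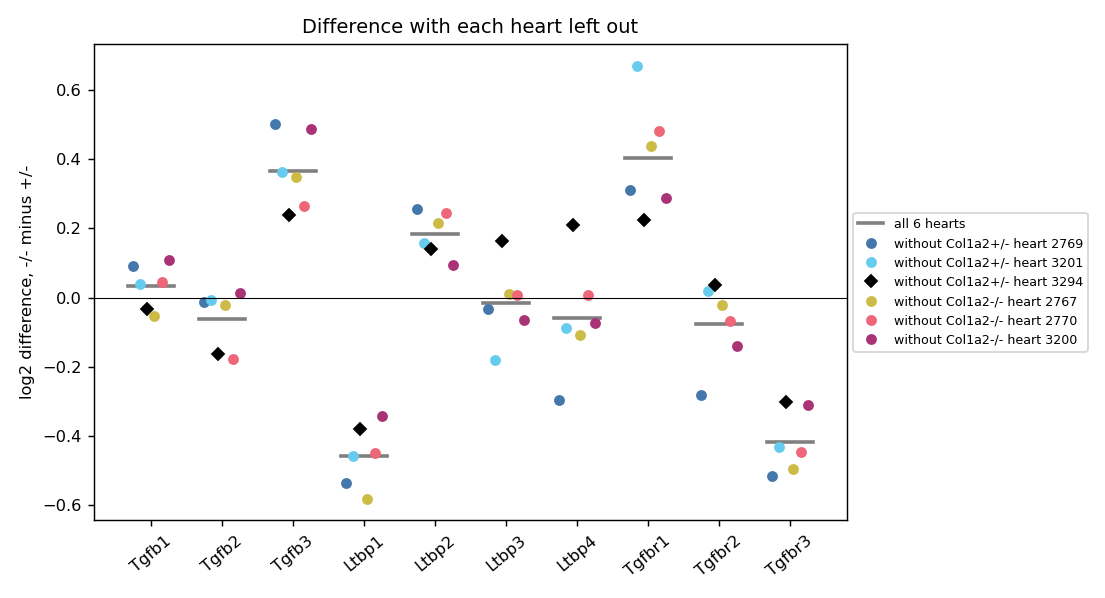
Log2 difference, Col1a2-/- minus Col1a2+/- (vertical axis), of the 10 genes with 1 heart removed at a time (points, with a black diamond for heart 3294) and with all 6 hearts (grey line). The points of Ltbp1 and Tgfbr3 stay below 0, those of Tgfb3, Ltbp2 and Tgfbr1 stay above 0, and those of the other 5 genes lie on both sides.

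Genotype aside, the 10 genes were also compared between series 27 and series 32. At an unadjusted p under 0.05, 0 of the 10 genes differed, beside 6.33% of all probe sets, and no probe set passed the adjusted p (limma with genotype as a term). The smallest p belonged to *Tgfbr2*, higher by 0.41 on the log2 scale in series 32 (unadjusted p = 0.054, adjusted p = 0.792), and *Tgfb3*, which was lower there with a difference of −0.38 (unadjusted p = 0.062, adjusted p = 0.805).

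Other parts of the pathway were read from 5 lists of 114 different genes, of which 109 were measured. *Ltbp2*, 1 of the 10 genes and dim, is also in the list of genes induced by TGFβ, and its difference of 0.18 is the median of that list. None of the 109 passed an adjusted p under 0.05 (the lowest adjusted p was 0.814 from limma), and 9 had higher *Col1a2-/-* values at an unadjusted p under 0.05, against 0 with lower values, beside 2.67% and 2.79% of all probe sets. Their median log2 difference was 0.078. In each of the 5 lists, the count of lower genes became 1 under at least 1 alternative or with a heart left out. The lists were written with earlier results of these hearts known, so their counts are a description.

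Of 22 measured genes of TGFβ activation and of the large latent complex, 2 were higher at an unadjusted p under 0.05 (2.67% of all probe sets), 0 were lower (2.79%) and 20 did not pass, with a median of 0.16. The count of 2 became 1 without heart 3200 or 3294 and with the methods' t-test. It became 3 without heart 2769, 2770 or 3201 and with probe sets under the dim limit left out. The count of 0 lower became 1 with the series as a block. *Thbs1*, the gene of thrombospondin-1, measured 7.31, 6.66 and 6.49 (log2 signal) in *Col1a2-/-* hearts 2767, 2770 and 3200, while *Col1a2+/-* hearts 2769, 3201 and 3294 gave 6.11, 6.04 and 6.22. The genotypes did not overlap, and heart 2767 was the highest (log2 difference 0.69, standard error 0.23, adjusted p = 0.879 from limma). *Plau*, the urokinase gene, whose product starts a plasmin cascade that can release TGFβ, had 6.47, 6.43 and 6.49 against 5.99, 6.20 and 5.87, also without overlap. Of the integrin chains that release TGFβ, *Itgav*, *Itgb6* and *Itgb8* had differences of 0.20, 0.15 and 0.0098, and none passed. These 3 were chosen after their values were seen.

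Of 13 measured binding proteins and co-receptors, 2 were higher at an unadjusted p under 0.05 (2.67% of all probe sets), 0 were lower (2.79%) and 11 did not pass, with a median of −0.0070. The count of 2 became 1 without heart 2767, 2770 or 3200 and with the series as a block, and 0 with the methods' t-test. *Aspn*, whose product asporin binds TGFβ, measured 11.66, 11.40 and 11.74 in *Col1a2-/-* hearts, while *Col1a2+/-* hearts gave 11.22, 10.98 and 10.32, the last of them heart 3294. *Nrp2*, the gene of neuropilin-2, a co-receptor that can bind TGFβ1, had 9.95, 10.24 and 9.97 against 9.82, 9.69 and 9.06. Heart 3294 was again the lowest, and the difference was 0.27 in series 27 and 0.59 in series 32. The unadjusted p of *Nrp2* from limma was 0.0414, and 0.0923 with the series as a block, where it no longer passed. Of 27 Smads and their regulators, none had an unadjusted p under 0.05 in either direction, with a median of 0.013 and a range from −0.37 to 0.36. The count of 0 higher became 1 without heart 2769 and with the methods' t-test.

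Of 31 genes known to be induced by TGFβ in cultured cells, 6 were higher at an unadjusted p under 0.05 (2.67% of all probe sets), 0 were lower (2.79%) and 25 did not pass, with a median of 0.18, and of 0.31 in series 27 and 0.13 in series 32. The count of 6 was 4 to 7 under the alternatives and 5 to 7 with a heart left out. The count of 0 became 1 with the series as a block, with trend and robust prior, and without heart 2767 or 3201. The mean was lower in *Col1a2-/-* hearts for 8 genes and higher for 23. *Acta2* had the lowest difference of this list at −0.54 (unadjusted p = 0.0776, adjusted p = 0.911 from limma), and its genotypes overlapped. Its difference was −0.73 in series 27 and −0.57 in series 32. With the series as a block in limma its unadjusted p was 0.0496. This gene was singled out with its values in view. *Postn*, the periostin gene, measured 10.72, 11.32 and 11.54 in *Col1a2-/-* hearts, while *Col1a2+/-* hearts gave 10.19, 10.11 and 10.18, the highest difference of this list at 1.03. *Col1a1*, the partner chain of *Col1a2*, had 9.94, 9.47 and 9.36 against 8.71, 8.77 and 8.86. *Timp1*, a metalloproteinase inhibitor, had 5.60, 5.67 and 5.77 against 4.97, 4.73 and 5.41, all under the dim limit, and the list also holds *Thbs1*. *Smad7* and *Pmepa1*, feedback inhibitors induced by TGFβ itself, had differences of −0.0065 and 0.039, and were chosen after their values were seen. The mean log2 signal of the 31 genes ranged from 8.58 to 8.69 for *Col1a2-/-* and from 8.29 to 8.61 for *Col1a2+/-*, the highest of the latter being heart 3294. Macrophage and monocyte markers, 11 of 12 measured, had mean log2 signals of 9.45 to 9.62 for *Col1a2-/-* and 9.31 to 9.39 for *Col1a2+/-*. These means did not overlap. Taken singly, 1 of the 11 genes was higher (limma, unadjusted p below 0.05), 0 were lower and 10 did not pass. Only 1 of the 11 had separate values with *Col1a2-/-* higher, beside 5.13% of all probe sets. The part of these markers in the lists was not tested.

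**Figure D5:**
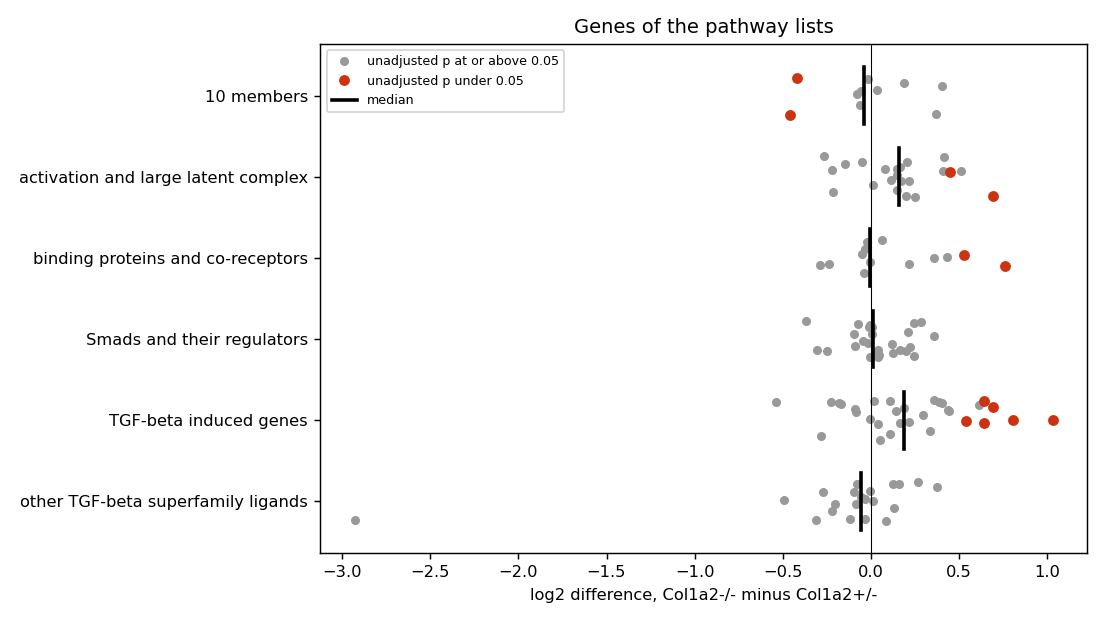
Log2 difference, Col1a2-/- minus Col1a2+/- (horizontal axis), of the 10 genes and of the genes of 5 pathway lists (rows), with red for an unadjusted p under 0.05 from limma and a black bar for the median. The red points lie below 0 for 2 of the 10 genes and above 0 in 3 of the lists, and the point at −2.93 is Bmp10.

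Of 21 measured ligands of the wider superfamily, none had an unadjusted p under 0.05 in either direction, with a median of −0.058. The count of 0 higher became 1 without heart 3200. The lowest difference was that of *Bmp10*, a ligand made by atrial myocytes, at −2.93 on the log2 scale. It had 13.89 in heart 3294 and 3.53 to 5.35 in the other 5 hearts, and was chosen after its values were seen.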

How the data were processed

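As deposited, the values are log2 signals per probe set of Affymetrix Clariom S Mouse arrays, normalized and summarized by the authors' software (Affymetrix Expression Console per the labels, Transcriptome Analysis Console per the methods). Versions and the kind of normalization are not given in the sources used here. All 6 arrays entered as they stood. Of 28846 entries, 6640 controls were left out and 22206 were tested. Symbols were taken from the platform annotation, where 19572 probe sets have a single one, and the brightest probe set stood for a gene.

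Genotypes were compared in limma 3.58.1 (lmFit, eBayes) under R 4.3.3, with no covariate and 4 residual degrees of freedom. Benjamini-Hochberg adjustment covered every probe set tested. Named were the 10 genes, *Col1a2*, up to 4 genes of each list and direction with the smallest unadjusted p under 0.05, and the 2 genes most like each ligand. The members and lists were chosen with earlier results of these data known. The number of arrays limits the precision. Code was tested on simulated data. Promoter windows came from RefSeq, and figures were drawn with matplotlib 3.10.9. Alternatives are named in the closing section.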

Additional observations from a re-analysis of the deposited data

How the results depend on the processing

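The number of the 10 genes past an adjusted p under 0.05 was 0 under every alternative run. These were quantile normalization, median centring, a filter on dim probe sets, eBayes with trend and robust prior, the methods' t-test, array weights, 1 probe set per gene, a block for series 27 and 32, and each heart left out. The genes have 1 probe set each, so that no other probe set could be tried. The count lower at an unadjusted p under 0.05 was 1 (*Ltbp1*, without *Tgfbr3*) in place of 2 with the block, with array weights and with the methods' t-test, and 0 to 2 with a heart left out (0 without heart 2770, 3200, 3201 or 3294). The count higher was 0 to 1 with a heart left out (1 without heart 2769, *Tgfb3*, and 1 without heart 3201, *Tgfbr1*). The median difference was 0.038 with the block and 0.0016 with array weights, and −0.025 to 0.088 with a heart left out. With the block, the log2 difference was 0.016 for *Ltbp3*, 0.068 for *Ltbp4*, −0.034 for *Tgfb1* and 0.059 for *Tgfbr2*, each of the opposite sign to that without it, and with array weights it was 0.040 for *Ltbp3*. With a heart left out, *Tgfb1* lay between −0.054 and 0.11, *Tgfb2* between −0.18 and 0.014, *Ltbp3* between −0.18 and 0.16, *Ltbp4* between −0.30 and 0.21 and *Tgfbr2* between −0.28 and 0.035. The cause was not tested. The genes that differed between series 27 and 32 at an unadjusted p under 0.05 numbered 1 with trend and robust prior, 1 with median centring, 2 with the dim filter and 0 to 1 with a heart left out. Probe sets past the adjusted p numbered 2 with trend and robust prior, 2 with the dim filter, 0 with the methods' t-test and 0 to 4 with a heart left out (4 without heart 2767, 0 without heart 2770 or 3294). *Col1a2* had a log2 difference of −2.51 with the methods' t-test (adjusted p = 0.546) and −2.60 to −2.39 with a heart left out (adjusted p = 0.0132 to 0.0948 from limma, over 0.05 without heart 2770 or 3294). No paired analysis was possible because the labels pair no hearts. With 3 hearts per genotype, a p that misses the threshold does not show equal levels, and the 95% confidence interval of *Ltbp4* reached from −0.62 to 0.50.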
